A study of Mus musculus with 6 samples.

Results

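The genes described here encode the axon guidance ligands and receptors, taken from the deposited table by name: every Robo, Slit, Sema or Ntn gene followed by a digit, every gene starting with Plxn or Unc5, and every Epha, Ephb, Efna or Efnb gene followed by a digit. The rule found 67 of the 17030 genes. By ligand family they were 7 Slit and Robo genes, 29 semaphorins and plexins, 8 netrins and Unc5 receptors, and 20 ephrins and Eph receptors. The other 3 were taken by their letters alone and encode no guidance ligand or receptor: Plxna4os1, an antisense transcript inside Plxna4, Unc50, a homologue of a worm membrane protein, and Unc5cl, a death domain protein related to Unc5c. The 64 family members divided into 35 ligands and 29 receptors.

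Male C57BL/B6 mice carried LLC (Lewis lung carcinoma) tumours, which are used to model cancer cachexia, and RNA was taken from the mononuclear cells of their skeletal muscle, in 2 groups of 3 libraries. The Pax7-CreERT group (Pax7 Cre ErT x IKKbfl/fl) carried floxed alleles of IKKb, the kinase of canonical NF-kB signalling, and a tamoxifen-activated Cre recombinase driven by Pax7, the transcription factor of muscle satellite cells. The control group (IKKbfl/fl) carried the same floxed alleles without Cre. Both groups received tamoxifen on days 10 to 14 after tumour cell injection. No group had Cre without floxed alleles, so Cre and the deletion cannot be told apart. The labels do not give the ages of the mice, and do not say whether each library is a separate animal, so p-values measure the spread between these libraries. The unit is CPM, a gene's reads per 1000000 reads assigned to genes. The libraries held an estimated 4054000 to 13355000 reads, and control replicate 3 was the shallowest. That library stood apart, with haemoglobin transcripts at 12.6% of its CPM, against 1.84% to 4.83% in the other 5. Ikbkb, the targeted gene, was measured at 51.4, 48.4 and 52.7 CPM in the Pax7-CreERT libraries and 51.3, 57.4 and 48.8 CPM in the controls, a value for the whole gene in which floxed exons are not separated.

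Guidance cues steer growing axons and, through the same receptors, blood vessels and other migrating cells. Slits are secreted and bind Robo receptors. Semaphorins act through plexins, and most class 3 semaphorins need a neuropilin as co-receptor, whereas Sema3e binds plexin-D1 directly. Netrins bind Dcc, neogenin and the Unc5 receptors. Ephrins are held on the cell surface, ephrin-As by a lipid anchor and ephrin-Bs by a transmembrane segment, and bind Eph receptor tyrosine kinases on the neighbouring cell. In vessels ephrin-B2 marks arteries and EphB4 marks veins, and Robo4 and plexin-D1 are endothelial receptors. In muscle, semaphorins and ephrins also act at the nerve ending and on satellite cells.

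The guidance genes with the most transcript per length were Sema3g, Ephb4, Efna1, Efnb2 and Efnb1, levels here being CPM per kb of the summed exons of each gene in GENCODE M21. Sema3g, a class 3 semaphorin of arterial endothelium, stood at 70.5 ± 5.83 CPM per kb with Cre and 79.8 ± 8.33 in the controls (SD, n = 3 each). Ephb4 stood at 65.4 ± 1.71 CPM per kb with Cre and 82.4 ± 8.52 in the controls. Efna1 (ephrin-A1) stood at 71.1 ± 6.45 CPM per kb with Cre and 72.1 ± 13.5 in the controls and Efnb2 (ephrin-B2) at 64.6 ± 2.52 CPM per kb with Cre and 63.9 ± 20.5 in the controls. Efnb1 (ephrin-B1) stood at 52.3 ± 6.23 CPM per kb with Cre and 64.9 ± 7.86 in the controls, the lowest of the 5 with Cre. Within the Pax7-CreERT group the means ± SD of Efna1, Sema3g, Ephb4 and Efnb2, neighbours in that order, overlapped, while Efnb1 lay below Efnb2 and above Plxna2 by more than the SDs. In the controls the order was Ephb4, Sema3g, Efna1, Efnb1, Efnb2 and Sema7a, each overlapping the next. A step lower came Plxna2 (plexin-A2) at 37.1 ± 4.49 CPM per kb with Cre and 36.5 ± 6.79 in the controls, Sema7a, a lipid-anchored semaphorin, at 32.3 ± 1.42 CPM per kb with Cre and 42.3 ± 6.17 in the controls, Ntn1 (netrin-1) at 32.6 ± 9.99 CPM per kb with Cre and 30.2 ± 10.2 in the controls and Robo4 at 27.8 ± 3.95 CPM per kb with Cre and 27.7 ± 5.81 in the controls. At the other end, 8 of the 67 genes stayed under the filter of at least 1 CPM in at least 3 libraries: Slit1, Sema4f, Ntn5, Unc5c, Unc5d, Epha5, Epha6 and Unc5cl. Slit1 had no read in Pax7-CreERT replicate 2 and control replicate 2, where a count of 0 allows up to 0.225 and 0.404 CPM. Unc5c, a netrin receptor, was measured at 2.63, 1.05 and 0.611 CPM in the Pax7-CreERT libraries and 0.334, 0.27 and 0.74 CPM in the controls, from 2 to 25 estimated reads a library. It was highest in Pax7-CreERT replicate 1, and its groups overlapped.

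**Figure D1:**
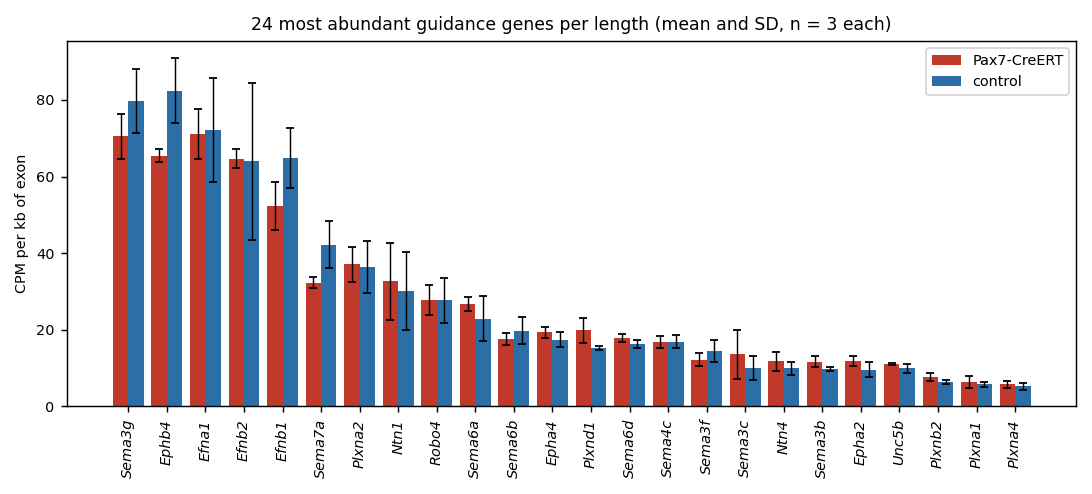
Mean CPM per kb of exon of the 24 most abundant guidance genes in the Pax7-CreERT (red, left) and control (blue, right) libraries, with bars for the SD of 3 libraries. Sema3g, Ephb4, Efna1, Efnb2 and Efnb1 lead in both groups, and the other 19 genes lie lower.

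The groups were compared to ask what the loss of IKKb in Pax7-expressing cells, under a tumour, does to RNA of muscle mononuclear cells. In the fit over all 14763 tested genes (limma on log2(CPM + 1), Benjamini-Hochberg adjustment), 0 of the 59 tested members passed at an adjusted p under 0.05, where 0.00677% of all genes passed, and the lowest adjusted p of a member was 0.891. At an unadjusted p under 0.05 there were 9 members (15.3%), 7 higher and 2 lower in the Pax7-CreERT libraries, against 5.52% of all tested genes, of which 4.58% were higher and 0.942% lower. On CPM without TMM factors, the groups did not overlap for 12 members (20.3%), against 11.0% of all genes. Of these, 10 were higher and 2 lower, beside 8.69% and 2.28% of all genes. The log2 fold change, Pax7-CreERT minus control, was above 0 in 47 of the 59 members with a median of 0.18, against 68.0% and 0.089 for all tested genes. With TMM (trimmed mean of M values) factors the median of all genes was 0.004, a shift of the scale itself, and 41 of 59 members were above 0 with a median of 0.092. The members with an unadjusted p under 0.05 were then 4 (Efnb1, Ephb4, Robo2 and Sema7a), 1 of them higher and 3 lower, beside 4.60% of all genes, and 50.9% of all genes were above 0. Without Pax7-CreERT replicate 1 they were 2 (Plxnd1 and Robo2), beside 3.0% of all genes, and without Pax7-CreERT replicate 2 they were 3 (Efna2, Epha1 and Robo2), beside 3.34%.

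Marker genes of other cells also differed between libraries. The 13 myofibre genes summed to 2016 to 2863 CPM with Cre and 978 to 1639 CPM in the controls, without overlap, and 13 of 13 had log2 fold changes above 0. Their median log2 fold change was 0.86, and 11 had an unadjusted limma p under 0.05, beside 5.52% of all genes. Such a p was found for 4 of 12 pericyte and smooth muscle, 3 of 12 fibro-adipogenic progenitor, 1 neutrophil and 1 red cell marker, and 0 in the other lists. Of all tested genes 68.0% were above 0. Macrophage markers (12) summed to 479 to 680.1 CPM with Cre and 352 to 999 CPM in the controls, with control replicate 3 the highest and Pax7-CreERT replicate 1 the next, and 8 of 12 were above 0. The sums were 703 to 766 CPM with Cre and 706 to 819.9 CPM in the controls for 11 satellite cell markers (7 of 10 tested above 0), 62.4 to 108 CPM with Cre and 83.9 to 128 CPM in the controls for 9 neutrophil markers (1 of 7 above 0) and 13.0 to 68.6 CPM with Cre and 12.0 to 129 CPM in the controls for 8 B and T cell markers (2 of 6 above 0). Red cell genes (7) summed to 16133 to 45591 CPM with Cre and 24305 to 119827 CPM in the controls, and 0 of 7 were above 0. Markers at 0 in at least 1 library were 1 of satellite cells, 2 of neutrophils and 2 of B and T cells, and 0 of the other lists. The part of these cells in the values of the guidance genes was not tested.

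By role, receptors were nearly all above 0 and ligands were not. Of 25 tested receptors 24 were above 0, with a median log2 fold change of 0.24, and Ephb4 was the one below. With TMM factors 20 were above 0, and Plxna2, Plxnc1, Robo4 and Unc5a joined Ephb4 below it. Of 32 tested ligands 21 were above 0, with a median of 0.15. The groups did not overlap for 9 receptors (36.0%), namely Robo2, Robo3, Plxna3, Plxnd1, Epha2, Epha7, Ephb1, Ephb2 and Ephb4, and for 3 ligands (9.38%), namely Sema3e, Sema4b and Sema7a, against 11.0% of all genes. Overlap was counted on CPM without TMM factors, and not again with them. At an unadjusted limma p under 0.05 there were 6 receptors and 3 ligands, beside 5.52% of all genes. With TMM factors there were 2 receptors and 2 ligands, beside 4.60% of all genes. Without TMM factors the ligands' shares, 65.6% above 0 and 9.38% without overlap, were near those of all genes. With TMM factors 20 of 32 ligands were above 0, beside 50.9% of all genes. The lowest value of 16 receptors (64.0%) lay in control replicate 3, as did that of 39.8% of all genes. Without that library 22 of 25 receptors were above 0, beside 59.1% of all genes. The highest value of 13 ligands (40.6%) lay in Pax7-CreERT replicate 1, beside 20.4% of all genes. The difference between ligands and receptors was not tested.

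**Figure D2:**
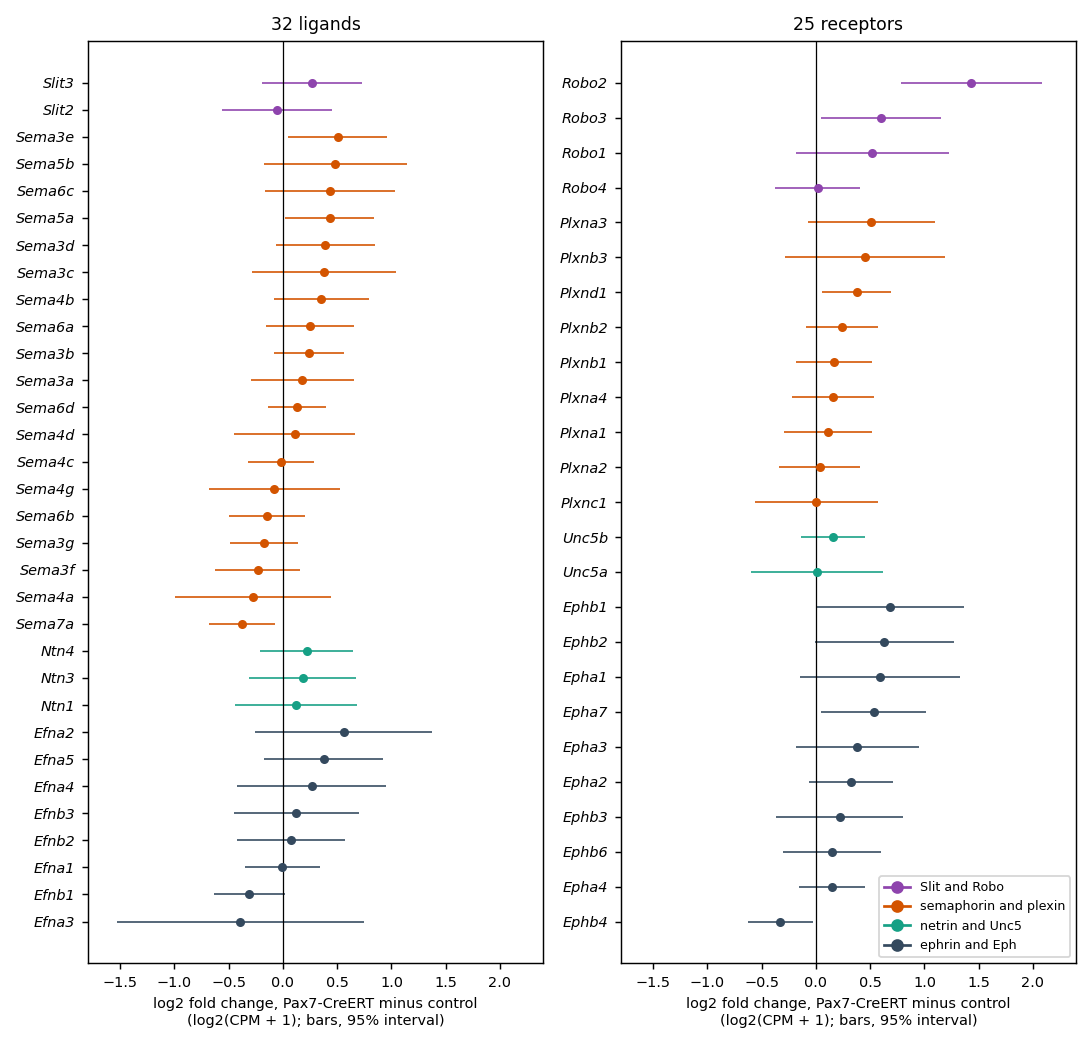
Log2 fold changes (Pax7-CreERT minus control, on log2(CPM + 1)) of the 32 ligands and 25 receptors tested, with 95% intervals from limma and colours for the family. The 24 receptors other than Ephb4 lie above 0 (20 with TMM factors), and Robo2 at 1.43 lies farthest out.

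Promoter sequence was read for the members whose groups did not overlap, because NF-kB, the factor that IKKb activates, binds the kappaB motif. RefSeq promoters on GRCm38.p6, cut to the 250 bases before the start, were at hand for 57 of the 67 members. The kappaB consensus was searched on both strands. It was found in 5 members (8.77%), namely Ephb1, Ephb2, Plxna3, Sema4a and Sema4c, against 10.7% of the 11628 tested genes with a promoter and 7.25% of all 32851 promoters. Log2 fold changes were 0.69, 0.63, 0.51, -0.28 and -0.017 for these 5 in that order. The sequences of the 3 with a match and non-overlapping groups are given with the motif in capitals, followed by those of Robo2, Plxnd1 and Sema7a, which had the smallest unadjusted p-values and no match in this window. Starts are those of RefSeq. For Robo2, which has 3, the one at the end of the deposited gene is shown. A match is a run of letters and not a measured binding site, and no match says only that the letters are not in this window.
Ephb1 (chr9:102354694-102354943, minus strand): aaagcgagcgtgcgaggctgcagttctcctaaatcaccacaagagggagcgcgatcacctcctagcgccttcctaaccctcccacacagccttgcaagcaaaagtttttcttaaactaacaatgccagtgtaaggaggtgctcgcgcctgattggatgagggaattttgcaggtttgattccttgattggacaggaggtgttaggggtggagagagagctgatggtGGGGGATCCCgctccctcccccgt
Ephb2 (chr4:136836013-136836262, minus strand): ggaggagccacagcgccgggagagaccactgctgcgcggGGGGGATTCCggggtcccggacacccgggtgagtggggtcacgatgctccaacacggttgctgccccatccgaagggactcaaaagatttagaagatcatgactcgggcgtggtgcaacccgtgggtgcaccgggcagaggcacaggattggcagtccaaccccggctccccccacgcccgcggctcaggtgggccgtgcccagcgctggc
Plxna3 (chrX:74328816-74329065, plus strand): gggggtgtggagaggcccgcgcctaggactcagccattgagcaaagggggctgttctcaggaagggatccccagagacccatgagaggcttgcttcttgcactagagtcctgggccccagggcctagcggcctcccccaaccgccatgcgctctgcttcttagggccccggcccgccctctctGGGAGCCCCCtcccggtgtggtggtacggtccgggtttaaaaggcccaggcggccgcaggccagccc
Robo2 (chr16:75092771-75093020, minus strand): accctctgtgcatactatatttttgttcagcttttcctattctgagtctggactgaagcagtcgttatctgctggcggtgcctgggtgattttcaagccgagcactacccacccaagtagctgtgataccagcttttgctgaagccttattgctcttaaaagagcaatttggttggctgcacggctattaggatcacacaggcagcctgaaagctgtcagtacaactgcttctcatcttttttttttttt
Plxnd1 (chr6:115995006-115995255, minus strand): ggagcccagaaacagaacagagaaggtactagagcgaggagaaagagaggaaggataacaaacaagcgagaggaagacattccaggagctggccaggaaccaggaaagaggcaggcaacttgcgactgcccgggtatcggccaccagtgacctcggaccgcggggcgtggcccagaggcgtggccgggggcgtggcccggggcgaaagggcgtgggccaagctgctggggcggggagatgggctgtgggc
Sema7a (chr9:57939862-57940111, plus strand): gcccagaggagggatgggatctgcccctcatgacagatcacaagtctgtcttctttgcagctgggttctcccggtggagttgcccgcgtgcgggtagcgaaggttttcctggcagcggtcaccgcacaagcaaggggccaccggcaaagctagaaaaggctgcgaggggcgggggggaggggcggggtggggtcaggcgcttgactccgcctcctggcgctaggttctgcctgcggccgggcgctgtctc

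Robo2 had the largest log2 fold change of the 59 tested members. Robo2, a receptor best known from the guidance of commissural axons (chr16:73892306-75092770, mm10), was measured at 8.83, 17.3 and 9.97 CPM in the Pax7-CreERT libraries and 5.18, 3.37 and 2.71 CPM in the controls. Every Pax7-CreERT library lay above every control, with replicate 2 the highest and control replicate 3 the lowest. The means were 12.0 ± 4.59 CPM with Cre and 3.75 ± 1.28 CPM in the controls (SD, n = 3 each), a 3.21-fold ratio, and the log2 fold change was 1.43 (limma SE 0.29, 95% interval 0.78 to 2.08, adjusted p = 0.891). The exact 2-sided permutation p was 0.1, the smallest that 3 libraries against 3 can give. The unadjusted p of limma was 0.000618 and was under 0.05 in each of the 6 fits that left out a library, from 0.000487 to 0.00332, with log2 fold changes of 1.16 to 1.64 and adjusted p-values of 0.489 to 0.999. These values rest on an estimated 11 to 231 reads a library. The summed CPM of the 12 pericyte and smooth muscle markers was also highest in Pax7-CreERT replicate 2 and lowest in control replicate 3. That sum ran over 9860 to 12247 CPM with Cre and 7670 to 9768 CPM in the controls, with 12 of 12 markers above 0 in log2 fold change. The 12 Schwann cell markers, summing to 1259 to 1615 CPM with Cre and 1174 to 1256 CPM in the controls, had the same highest and lowest library and were also 12 of 12 above 0. No marker of either list was at 0 in any library. Of all tested genes, 22.8% were highest in Pax7-CreERT replicate 2 and 39.8% lowest in control replicate 3. Other members, among them Plxnd1, Sema5a, Epha2, Epha4 and Ephb1, had the same highest and lowest library as Robo2. The myofibre markers, 13 of 13 above 0, had their lowest sum in control replicate 3 as well, and their highest in Pax7-CreERT replicate 1. The part of these cells in the Robo2 difference was not tested, and in bulk RNA fewer cells of a type and less RNA per cell cannot be told apart.

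The other Robo and Slit genes had smaller log2 fold changes. Robo3, a receptor that in commissural axons lowers the response to Slit (chr9:37416045-37433175), was measured at 2.42, 2.02 and 2.44 CPM in the Pax7-CreERT libraries and 1.34, 1.21 and 0.987 CPM in the controls. The groups did not overlap, at 2.29 ± 0.236 CPM with Cre and 1.18 ± 0.178 CPM in the controls, with a log2 fold change of 0.60 (limma SE 0.25, 95% interval 0.043 to 1.15, adjusted p = 0.891). Its levels rest on 4 to 27 estimated reads, so counting error alone had an SD of up to 50.0%. Robo4, which lies beside Robo3 on the other strand, was measured at 149, 158 and 119 CPM in the Pax7-CreERT libraries and 138, 173 and 114 CPM in the controls, and its groups overlapped (log2 fold change 0.017, SE 0.18, 95% interval -0.37 to 0.41, adjusted p = 0.991). With TMM factors its log2 fold change was -0.074. Robo1 was measured at 15.5, 7.94 and 6.11 CPM in the Pax7-CreERT libraries and 5.18, 5.25 and 8.14 CPM in the controls, highest in Pax7-CreERT replicate 1 with the others mixed (log2 fold change 0.52). Without that library it was 0.17. Among the ligands Slit3 was measured at 25.7, 14.8 and 18.1 CPM in the Pax7-CreERT libraries and 15.0, 15.2 and 16.8 CPM in the controls, again highest in Pax7-CreERT replicate 1 (log2 fold change 0.27, and 0.062 without it and 0.44 without replicate 2), and Slit2 was measured at 6.10, 6.96 and 4.07 CPM in the Pax7-CreERT libraries and 5.68, 5.93 and 5.92 CPM in the controls (-0.054). As a ratio within each library, Robo2 over Robo4 was 0.0593, 0.109 and 0.0835 with Cre and 0.0377, 0.0195 and 0.0238 in the controls, without overlap. Robo2 over Robo1 was 0.571, 2.18 and 1.63 with Cre and 1.0, 0.641 and 0.333 in the controls, and this ratio overlapped, with Pax7-CreERT replicate 1 the second lowest of the 6 libraries.

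**Figure D3:**
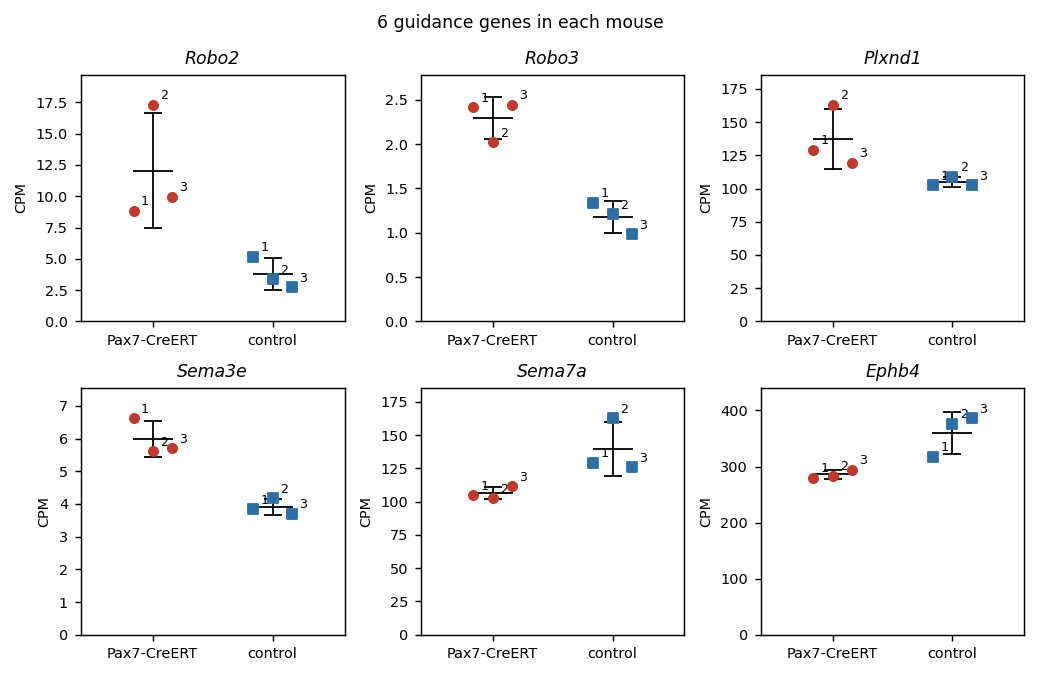
CPM of 6 guidance genes in each library, with Pax7-CreERT (red circles) left of control (blue squares), replicate numbers beside the points, and mean with SD in black. Robo2, Robo3, Plxnd1 and Sema3e are higher and Sema7a and Ephb4 lower in all 3 Pax7-CreERT libraries than in any control.

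In the semaphorin family a ligand and its receptor were both higher in every Pax7-CreERT library than in any control, at adjusted p-values that missed the threshold. Of all tested genes, 8.69% were likewise higher without overlap. Plxnd1, the endothelial receptor plexin-D1 (chr6:115954811-115995005), was measured at 129, 163 and 119 CPM in the Pax7-CreERT libraries and 103, 109 and 103 CPM in the controls. The controls lay close together and every Pax7-CreERT library lay above them, at 137 ± 22.8 CPM with Cre and 105 ± 3.67 CPM in the controls. The log2 fold change was 0.37 (limma SE 0.14, 95% interval 0.057 to 0.69, adjusted p = 0.891). Its ligand Sema3e (chr5:14025276-14256689), which repels vessels that carry plexin-D1, was measured at 6.62, 5.62 and 5.70 CPM in the Pax7-CreERT libraries and 3.84, 4.18 and 3.70 CPM in the controls, at 5.98 ± 0.559 CPM with Cre and 3.91 ± 0.244 CPM in the controls and a fold change on the log2 scale of 0.51 (limma SE 0.20, 95% interval 0.05 to 0.96, adjusted p = 0.891). The unadjusted limma p was 0.0253 for Plxnd1 and 0.033 for Sema3e, which rests on 15 to 75 estimated reads a library. Without Pax7-CreERT replicate 2 the log2 fold change of Plxnd1 was 0.24, and with TMM factors it was 0.28. For Sema3e it was 0.43 with TMM factors, at an unadjusted limma p of 0.0562. In the 6 fits that left out a library, the unadjusted limma p of Sema3e ran from 0.0511 to 0.11 and was under 0.05 in 0. That of Plxnd1 was under 0.05 in 4 of the 6. The 15 endothelial markers summed to 8203 to 9067 CPM with Cre and 7338 to 10376 CPM in the controls, 8 of 15 above 0, with none at 0 in any library, and the sums of the groups overlapped. Plxnd1 was highest in Pax7-CreERT replicate 2 and lowest in control replicate 3, nearly level with control replicate 1. The summed pericyte and smooth muscle markers and Schwann cell markers had the same highest and lowest library. Of all tested genes, 22.8% were highest in the first of these libraries and 39.8% lowest in the second. The part of any of these cells in the Plxnd1 and Sema3e values was not tested.

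Sema7a stood in the other direction. This lipid-anchored semaphorin, which binds plexin-C1 and integrins (chr9:57940112-57962865), was measured at 105, 103 and 112 CPM in the Pax7-CreERT libraries and 129, 163 and 126 CPM in the controls. All 3 Pax7-CreERT libraries lay below the lowest control, at 106 ± 4.70 CPM with Cre and 139 ± 20.3 CPM in the controls, and the log2 fold change was -0.38 (limma SE 0.14, 95% interval -0.68 to -0.071, adjusted p = 0.891). It was -0.47 with TMM factors and ran from -0.44 to -0.26 when single libraries were left out. The unadjusted limma p of Sema7a was under 0.05 in 3 of those 6 fits, and reached 0.0879. Its receptor Plxnc1 was measured at 10.4, 9.58 and 12.6 CPM in the Pax7-CreERT libraries and 9.53, 7.95 and 16.3 CPM in the controls, with overlapping groups and control replicate 3 the highest.

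Of the other semaphorins, Sema5a, a transmembrane ligand with thrombospondin repeats, was measured at 65.7, 67.2 and 43.4 CPM in the Pax7-CreERT libraries and 44.0, 46.1 and 37.7 CPM in the controls. Pax7-CreERT replicates 1 and 2 stood above the controls and replicate 3 lay among them (log2 fold change 0.43, SE 0.18, 95% interval 0.024 to 0.84, adjusted p = 0.891, exact permutation p = 0.3). Sema4b, a class 4 transmembrane semaphorin, was measured at 10.7, 10.6 and 11.8 CPM in the Pax7-CreERT libraries and 6.69, 9.16 and 9.62 CPM in the controls, without overlap (log2 fold change 0.35, adjusted p = 0.896, and 0.21 on the log2 scale without control replicate 1). Sema3g was measured at 323, 345 and 292 CPM in the Pax7-CreERT libraries and 369, 396 and 321 CPM in the controls, with overlapping groups (log2 fold change -0.18). Sema3c, a secreted class 3 ligand, was uneven within the groups, at 115, 51.4 and 58.2 CPM in the Pax7-CreERT libraries and 42.6, 48.6 and 74.3 CPM in the controls. Its 2 highest libraries were Pax7-CreERT replicate 1 and control replicate 3. The 12 marker genes of mesenchymal fibro-adipogenic progenitors were also highest in the same 2 libraries, with summed CPM of 6654 and 5966, against 3826 to 4026 in the other 4, and none was at 0. The 12 macrophage markers were highest in these 2 libraries too, at 680 and 999 CPM, against 352 to 491 in the other 4. The part of these cells in the Sema3c values was not tested. By class, 5 of 7 class 3, 2 of 5 class 4, 2 of 2 class 5 and 3 of 4 class 6 semaphorins tested had log2 fold changes above 0.

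All 9 plexins had log2 fold changes above 0, from 0.0048 for Plxnc1 to 0.51 for Plxna3, except that Plxna2 and Plxnc1 were below 0 with TMM factors or quantile normalization. Plxna3, which serves class 3 semaphorins with neuropilins, was measured at 4.21, 3.37 and 4.68 CPM in the Pax7-CreERT libraries and 1.67, 2.96 and 3.21 CPM in the controls, without overlap, on 10 to 45 estimated reads (log2 fold change 0.51, SE 0.26, 95% interval -0.072 to 1.10, adjusted p = 0.896). It was 0.31 without control replicate 1. Plxna2, the most abundant plexin per length, was measured at 373, 466 and 389 CPM in the Pax7-CreERT libraries and 393, 482 and 333 CPM in the controls, and its groups overlapped (log2 fold change 0.033, and -0.059 with TMM factors). Plxna4, a receptor of class 3 and class 6 semaphorins, was measured at 88.1, 72.4 and 65.1 CPM in the Pax7-CreERT libraries and 77.1, 71.4 and 54.3 CPM in the controls. Its antisense transcript Plxna4os1 was measured at 3.89, 2.92 and 3.87 CPM in the Pax7-CreERT libraries and 4.35, 3.50 and 2.22 CPM in the controls. The libraries were made with a strand-specific kit, but whether counting used the strand is not given in the sources used here, so reads of this pair may not be separated. Unc50, the other tested gene taken by its letters alone, was measured at 12.5, 15.8 and 13.2 CPM in the Pax7-CreERT libraries and 17.4, 14.7 and 9.13 CPM in the controls.

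Every tested gene of the netrin family had overlapping groups, where 11.0% of all genes had groups without overlap. Ntn1 (chr11:68209364-68386826) was measured at 269, 163 and 164 CPM in the Pax7-CreERT libraries and 157, 140.2 and 255 CPM in the controls. Like Sema3c and the progenitor and macrophage markers it was highest in Pax7-CreERT replicate 1 and control replicate 3. Its log2 fold change was 0.12 (limma SE 0.25, 95% interval -0.45 to 0.68, adjusted p = 0.957). It was -0.12 without Pax7-CreERT replicate 1 and 0.38 without control replicate 3. Ntn4, a basement membrane netrin, was measured at 51.2, 44.6 and 32.8 CPM in the Pax7-CreERT libraries and 30.1, 42.6 and 36.8 CPM in the controls (log2 fold change 0.22, 0.081 without Pax7-CreERT replicate 1 and 0.39 without replicate 3), and Ntn3 was measured at 4.52, 4.12 and 3.66 CPM in the Pax7-CreERT libraries and 3.84, 2.96 and 3.70 CPM in the controls (0.18). Ntn4 overlaps 2 genes on the other strand and Ntn3 overlaps Tbc1d24 on its own strand, so their reads may be shared. The receptor Unc5b, which vessels express, was measured at 63.9, 63.3 and 67.0 CPM in the Pax7-CreERT libraries and 54.7, 66.1 and 54.0 CPM in the controls, with overlapping groups (log2 fold change 0.16, SE 0.13, 95% interval -0.14 to 0.45, adjusted p = 0.9). Unc5a stayed at or under 1.80 CPM with Cre and 2.02 CPM in the controls. All 5 tested genes of this family had log2 fold changes above 0, apart from Unc5a with TMM factors or quantile normalization, and 0 had an unadjusted p under 0.05. Of all genes 5.52% had such a p, so counts of 0 among 5 genes do not set this family apart.

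Among the 10 tested Eph receptors only Ephb4 had a log2 fold change below 0. Ephb4, the venous receptor (chr5:137350109-137374522), was measured at 280.0, 283 and 294 CPM in the Pax7-CreERT libraries and 317, 376 and 386 CPM in the controls. The Pax7-CreERT libraries lay close together and below all controls, at 286 ± 7.49 CPM with Cre and 360.1 ± 37.2 CPM in the controls, with a log2 fold change of -0.33 (limma SE 0.13, 95% interval -0.62 to -0.031, adjusted p = 0.891) and -0.42 with TMM factors. When single libraries were left out, the log2 fold change of Ephb4 ran from -0.41 to -0.27. The unadjusted limma p of Ephb4 was under 0.05 in 2 of these 6 fits, and reached 0.0905. Its arterial ligand Efnb2 was measured at 299, 308 and 323 CPM in the Pax7-CreERT libraries and 333, 389 and 198 CPM in the controls, with overlapping groups and control replicate 3 alone low (log2 fold change 0.071, SE 0.22, 95% interval -0.43 to 0.57, adjusted p = 0.973). Without that library the log2 fold change of Efnb2 was -0.22. The ratio of Efnb2 to Ephb4 CPM was 1.07, 1.09 and 1.10 in the Pax7-CreERT libraries and 1.05, 1.03 and 0.511 in the controls, so 5 libraries were nearly alike and control replicate 3 stood apart. Efnb1, the other abundant ephrin-B, was measured at 151, 168 and 192 CPM in the Pax7-CreERT libraries and 184, 235 and 215 CPM in the controls (log2 fold change -0.31, SE 0.15, 95% interval -0.63 to 0.016, adjusted p = 0.896), and a single control library lay within the range with Cre.

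The other 9 Eph receptors tested had log2 fold changes above 0, also with TMM factors and quantile normalization. Ephb1, a receptor for ephrin-Bs, was measured at 18.1, 21.4 and 15.1 CPM in the Pax7-CreERT libraries and 14.9, 14.0 and 5.92 CPM in the controls, a narrow gap with control replicate 3 far below (log2 fold change 0.69, SE 0.30, 95% interval 0.0077 to 1.36, adjusted p = 0.896). Without control replicate 3 it was 0.30. Ephb2 was measured at 5.26, 4.42 and 4.68 CPM in the Pax7-CreERT libraries and 4.35, 1.62 and 2.71 CPM in the controls, and its lowest Pax7-CreERT library was nearly level with control replicate 1 (log2 fold change 0.63, SE 0.29, 95% interval -0.0081 to 1.27, adjusted p = 0.896). It was 0.37 without control replicate 2. Epha7, a receptor for ephrin-As, was measured at 12.3, 11.6 and 13.2 CPM in the Pax7-CreERT libraries and 9.53, 9.83 and 5.92 CPM in the controls, without overlap (log2 fold change 0.53, SE 0.22, 95% interval 0.049 to 1.01, adjusted p = 0.891). It was 0.32 without control replicate 3. Epha2, an ephrin-A1 receptor of epithelium and vessels, was measured at 43.9, 52.0 and 43.1 CPM in the Pax7-CreERT libraries and 40.5, 42.8 and 28.6 CPM in the controls, also without overlap (log2 fold change 0.32, and 0.15 without control replicate 3). Epha4, the most abundant EphA gene per length and a receptor for both ephrin classes, was measured at 123, 130.4 and 113 CPM in the Pax7-CreERT libraries and 118, 118 and 95.5 CPM in the controls, with overlapping groups. The ligand Efna1 was measured at 122, 124 and 144 CPM in the Pax7-CreERT libraries and 113, 159.9 and 123 CPM in the controls, and its groups overlapped (log2 fold change -0.0082, SE 0.15, 95% interval -0.35 to 0.34, adjusted p = 0.994). The faint ephrins Efna2 to Efna5 lay at or under 5.57 CPM, and Efna3 reached its highest value in control replicate 3.

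**Figure D4:**
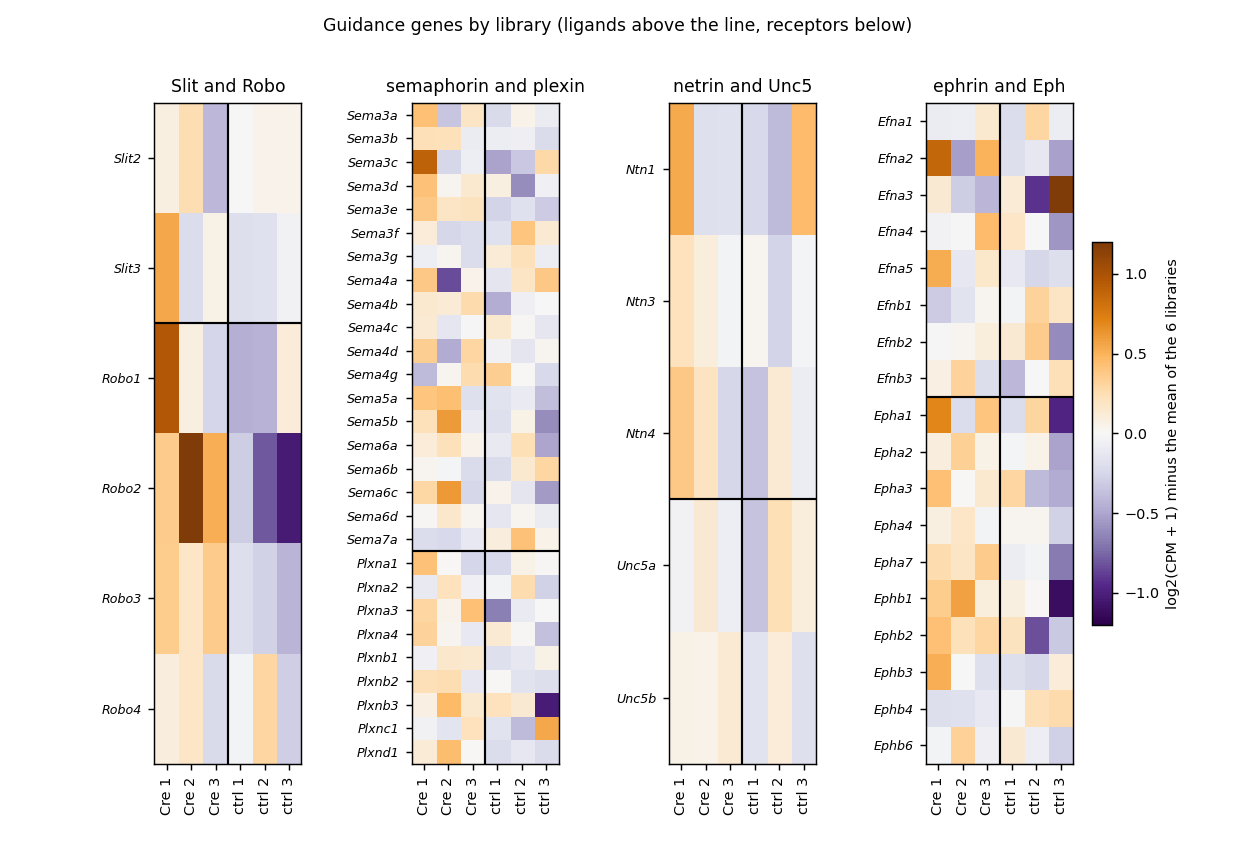
Log2(CPM + 1) of each tested member minus its mean over the 6 libraries, by family, with Pax7-CreERT libraries left of the vertical line and controls right of it. Robo2 separates the groups in every library, control replicate 3 (ctrl 3) is low for many Eph receptors, and Sema3c and Ntn1 are high in Pax7-CreERT replicate 1 (Cre 1) and control replicate 3.

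Of 71 further gene names listed for the guidance pathway, as co-receptors, other ligands and intracellular effectors, 68 were in the table. Grb4, not found there, is another name of Nck2, which was. Of the genes found, 62 were tested and 0 passed at an adjusted p under 0.05. At an unadjusted p under 0.05 there were 6 (9.68%, against 5.52% of all genes), all higher, and the groups did not overlap for 10 (16.1%, against 11.0%), 9 higher and 1 lower (Rras, a small GTPase that plexins inactivate). The median log2 fold change was 0.15, with 50 of 62 above 0 (80.6%), against 0.089 and 68.0% for all tested genes. With TMM factors the median was 0.063, against 0.004 for all genes. The counts of this paragraph are without TMM factors. Plxdc1, a plexin domain protein first known from tumour endothelium, was measured at 18.4, 16.8 and 14.2 CPM in the Pax7-CreERT libraries and 7.69, 8.89 and 9.62 CPM in the controls (log2 fold change 0.84, SE 0.18, 95% interval 0.44 to 1.25, adjusted p = 0.891). Dpysl3, a collapsin response mediator that carries semaphorin signals, was measured at 116, 115 and 78.8 CPM in the Pax7-CreERT libraries and 72.0, 56.3 and 71.5 CPM in the controls (log2 fold change 0.61, SE 0.18, 95% interval 0.21 to 1.01, adjusted p = 0.891). The remaining 4 were Rgma, a neogenin ligand, Trio, a signalling protein downstream of netrin receptors, Ntng1, a netrin-G, and Limk1, a kinase of cofilin, with log2 fold changes of 0.54, 0.38, 0.54 and 0.44. The co-receptor Nrp1, which class 3 semaphorins use, was measured at 861, 977 and 984 CPM in the Pax7-CreERT libraries and 1016, 1072 and 767 CPM in the controls (log2 fold change -0.0045), and Nrp2 was measured at 411, 466 and 406 CPM in the Pax7-CreERT libraries and 367, 445 and 313 CPM in the controls (0.20). The netrin receptor Neo1 (neogenin) was measured at 37.6, 30.3 and 24.2 CPM in the Pax7-CreERT libraries and 23.7, 29.1 and 22.7 CPM in the controls (0.26). For these 3 receptors the groups overlapped, and for Plxdc1 and Dpysl3 they did not.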

How the data were processed

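Per the labels' protocols, libraries were made with a SureSelect strand-specific kit. The deposited values are CPM per gene for 6 libraries, each with 0.0001 added (read from the values). The submitters' processing notes name Partek, DESeq2 and mm10 without a role, and aligner, counting rule and annotation are not given in the sources used here. Replicates were numbered in record order. Depth was estimated from the steps between low values. Of values up to 20 reads, 92.9% to 93.9% were whole within 0.05 read, under the 95% required, so no count test was run. Counting error at 10 CPM had an SD of 8.65% to 15.7%, and limits for a count of 0 (3 reads) cover counting error only.

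The test was that of limma 3.58.1 (R 4.3.3) with a mean-variance trend, on log2(CPM + 1), which understates changes of low genes. It took the 14763 genes at 1 CPM or more in 3 or more libraries, with Benjamini-Hochberg adjustment over all. It was checked on simulated data with 200 changed genes, all above the median CPM and with changes larger than those of the members. That check did not cover small changes or faint genes. No member passed the filter through 1 group alone. Deposited ends lay 1 base past RefSeq ends for 39 of 67 members, so 1 was subtracted. Members and lists were chosen with earlier results of these data known. Named in each family were members with an unadjusted p under 0.05 or groups without overlap, the 2 largest absolute log2 fold changes and the 2 highest mean CPM. Robo1, Slit1, Slit2, Sema3c, Plxnc1, Plxna4, Efnb1, Efna1, Epha4, Unc5a, Unc5c, Nrp1, Nrp2 and Neo1 were chosen after their values were seen. Alternatives were a constant of 0.25, no filter, TMM factors, quantile normalization, no trend, and libraries left out, singly and as 1 pair.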

Additional observations from a re-analysis of the deposited data

How the results depend on the processing

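In every setting tried 0 members passed at an adjusted p under 0.05 with limma. The genes passing among all genes were 1, and 2 with no filter, 2 with Pax7-CreERT replicate 1 and control replicate 3 both left out, and 0 to 1 when single libraries were left out. The 9 members with an unadjusted p under 0.05 became 4 with TMM factors, 5 with quantile normalization, 3 without both and 2 to 10 with single libraries left out (2 without Pax7-CreERT replicate 1). All genes gave 5.52%, 4.60%, 4.61%, 4.80% and 3.0% to 6.92% in the same order. The median log2 fold change of all members was 0.092 with TMM factors, 0.087 with quantile normalization and 0.12 to 0.25 with single libraries left out. The Slit and Robo median was 0.39, 0.23 without the 2 libraries and 0.12 to 0.53 with single libraries left out. The semaphorin and plexin median was 0.085 with TMM factors, the ephrin and Eph median 0.094 with quantile normalization, and that of the further pathway genes 0.047 without the 2 libraries. Among the 22 genes named by rule, the sign turned for 4 whose log2 fold change was near 0. Efnb2 was -0.021 with TMM factors, -0.19 without the 2 libraries and -0.22 to 0.27 with single libraries left out. Plxna2 was -0.059, -0.0081 with quantile normalization, -0.032 and -0.095 to 0.17, Robo4 was -0.074, -0.045, -0.17 and -0.13 to 0.17, and Ntn1 ran from -0.12 to 0.38. The causes were not tested. Medians of ligands and receptors under the settings were added after seeing the data. No paired analysis was possible because the labels give no replicate numbers. Depth limits the faint members, such as Robo3 with 4 reads in control replicate 3.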
